A study of Homo sapiens with 4 samples.

Results

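Gene expression of 10 imprinted growth genes was examined in HepG2 cells, a human liver cancer line, after knockdown of the zinc finger transcription factor PATZ1. The genes were H19, IGF2, CDKN1C and PHLDA2 at 11p15 and MEG3, DLK1, PEG3, PEG10, MEST and PLAGL1 at other loci. They were taken by symbol from the platform annotation, which gave 19 probes, 6 of them for the 4 genes at 11p15 and 13 for the other 6 genes, out of 47323 probes and 20045 named genes on the array. The list was chosen by the measured fold changes of H19 and CDKN1C in these arrays, whose falls were already known, so the values of both genes are given as a description and their p-values are not a test of the list.

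Imprinted genes are expressed mainly from the copy inherited from one parent. Many of them act on growth before birth, and in mice maternally expressed members often restrain growth while paternally expressed members often promote it. H19 and IGF2 lie beside each other at 11p15 and share enhancers, and CDKN1C and PHLDA2 lie in a neighbouring imprinted domain of the same band. IGF2 and H19 are both abundant in fetal liver and are found again in some liver tumors.

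siPATZ1-treated cells (2 arrays) received 60 pmol of siRNA against PATZ1, and siCTRL-treated cells (2 arrays) received the same amount of a scrambled siRNA. Both groups were HepG2 cells reverse transfected with Lipofectamine RNAiMax and collected after 48 h, so the transfection itself was common to both. Whether the 2 arrays of each group stand for separate cultures is not given in the labels. The p-values therefore measure the spread between arrays, which may be technical, and 2 arrays a group limit the precision of every value.

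The mean signal of an array was 522.9 and 554.7 after siPATZ1, against 502.9 and 492.2 after siCTRL, and 15980 and 15236 probes were detected after siPATZ1, against 14222 and 14384 after siCTRL. None of the 3 PATZ1 probes was detected on any array, so the arrays could not check the knockdown. The study itself reported lower PATZ1 mRNA by qRT-PCR and lower protein by western blot in siPATZ1-treated HepG2 cells. Of 16 hepatocyte marker genes on the array 5 were detected on all 4 arrays (ALB, FOXA1, FOXA2, KRT8 and KRT18, the last 2 being keratins of many epithelia). The other 11, all of them genes of secreted liver proteins, were detected on no array (AFP, APOA1, APOB, APOH, SERPINA1, TTR, FGA, FGB, FGG, TF and RBP4), so these arrays bear out the liver label of the line by few of its markers. Marker signals were summed before normalization. The summed signal of the hepatocyte markers was 8469 and 8825 after siPATZ1, against 7830 and 6492 after siCTRL. Most of it came from KRT8 (5119 and 5349 after siPATZ1, against 4613 and 3493 after siCTRL). Of the 5 tested 0 passed, and their directions differed. The log2 fold change was 0.25 for KRT8, 0.28 for KRT18, -0.18 for ALB and -0.05 for FOXA1. For FOXA2 it was -0.52 (adjusted p = 0.0502 from limma). The summed signal of 8 mesenchymal marker genes was 13267 and 13264 after siPATZ1, against 9656 and 10079 after siCTRL, most of it from VIM, the only one detected on all 4 arrays. Of the 3 that could be tested, VIM (log2 fold change 0.29), COL3A1 (0.46) and COL1A1 (-0.51), 0 passed, and COL1A2, DCN, LUM, PDGFRB and THY1 had no probe that could be tested. The part of these marker levels in the results below was not tested. None of the trophoblast, leukocyte or endothelial markers could be tested.

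H19 is a long noncoding RNA that is also the precursor of the microRNA miR-675. Both mature strands of miR-675 are shown because the array held 0 probes for this microRNA, so only the host RNA was measured. Sequences are from RefSeq (GRCh38.p14), 5′ to 3′, with the seed (bases 2 to 8) in capitals. hsa-miR-675-5p is at chr11:1996800-1996822 and hsa-miR-675-3p at chr11:1996768-1996787, both on the minus strand.
hsa-miR-675-5p: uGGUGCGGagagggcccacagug
hsa-miR-675-3p: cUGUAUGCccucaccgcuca
The seeds of the strands differ. The window around the outermost RefSeq start of H19 (chr11:2001217-2001516, minus strand, 250 bases before the start and 50 after it) is shown as the start of the gene with the most negative fold change of the 4 members that could be tested, with the transcribed bases in capitals.
H19 window: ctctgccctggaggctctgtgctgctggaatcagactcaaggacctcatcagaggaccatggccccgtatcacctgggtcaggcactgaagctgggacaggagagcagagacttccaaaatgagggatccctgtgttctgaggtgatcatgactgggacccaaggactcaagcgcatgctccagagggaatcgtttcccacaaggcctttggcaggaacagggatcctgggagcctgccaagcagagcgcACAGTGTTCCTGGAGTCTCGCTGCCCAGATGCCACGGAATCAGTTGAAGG
Of these 300 bases 57.7% were G or C, with 6 CpG pairs and no run of G or of C longer than 4 bases. PATZ1 is known to bind G-rich DNA. A search on both strands for GGGGAGGTG, the 9-base site that the study mutated in the CDKN1B promoter, and for runs of 6 or more G found neither in the H19 window. This outermost start lies 4435 bases before the miR-675 hairpin, and any other start of H19 was not searched. RefSeq windows were matched for 4 of the 10 genes (H19, MEG3, MEST and PLAGL1), with 14 windows in all. CDKN1C, PHLDA2, IGF2, DLK1, PEG3 and PEG10 had no matched window and were not searched. GGGGAGGTG was in 0 of the 14, against 1.64% of all 35116 windows, and a run of 6 or more G was in 3 of the 14, all 3 of MEG3, against 18.8% of all windows. These are counts of letters and not of binding sites.

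Of the 10 genes, 4 could be tested (H19, CDKN1C, PHLDA2 and PLAGL1) and 2 were called, H19 and CDKN1C, both lower in siPATZ1-treated cells. A gene could be tested where a probe reached a detection p-value under 0.01, set against the negative controls of the array, on both siPATZ1 arrays or on both siCTRL arrays. It was called at an adjusted p under 0.05 with limma. Over all 9435 genes tested, 6.96% were called lower and 7.78% higher. Since both falls were known when the genes were chosen, the 2 called of 4 tested are not set against that share. No member was called higher, and at an unadjusted p under 0.05 there were 0 as well, both with limma and with the two-group test of the study's methods. The same 2 genes were called lower when each of the 4 kept probes was tested over all 15090 probes, where 5.68% of probes were called lower. In bulk RNA, fewer cells of a type that carries a transcript and less of that transcript per cell cannot be told apart.

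**Figure D1:**
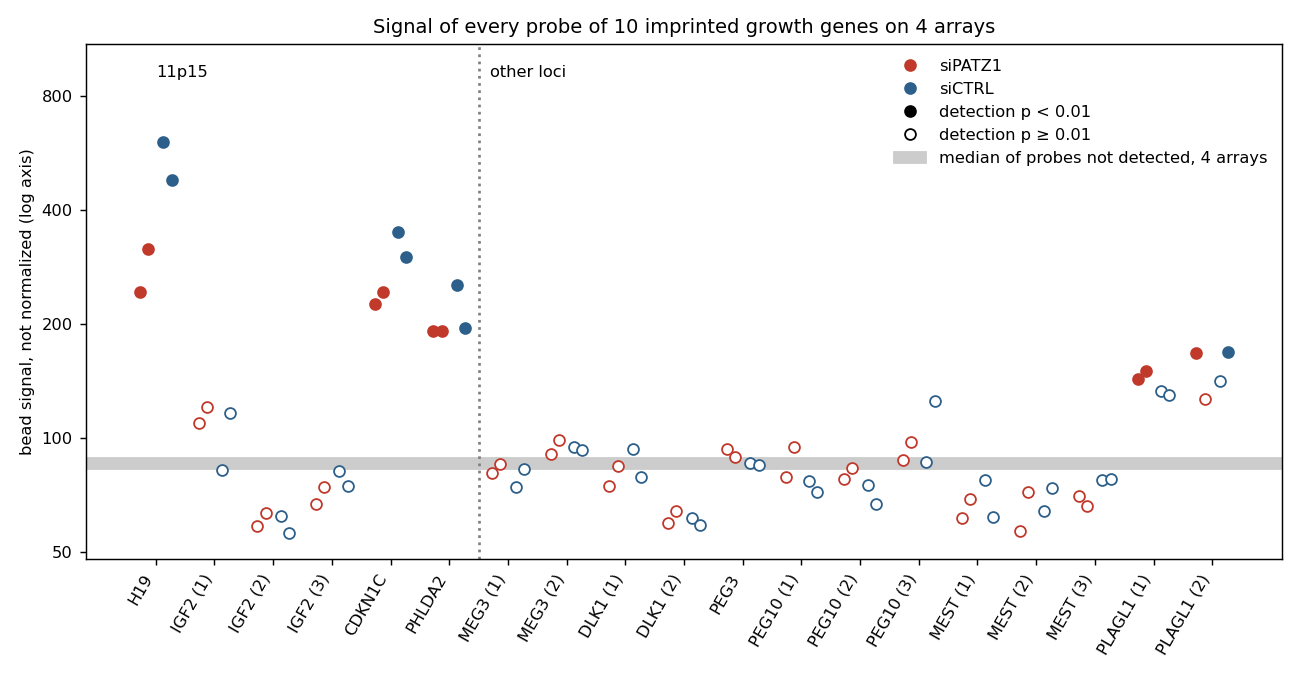
Bead signal before normalization (log axis) of the 19 probes of the 10 imprinted growth genes, with siPATZ1 arrays in red left of siCTRL arrays in blue. Filled points had a detection p-value under 0.01, and the grey band spans the median signal of undetected probes on the 4 arrays (82.8 to 88.6). H19, CDKN1C and PHLDA2 were detected on all 4 arrays, PLAGL1 on some, and the 14 probes of the other 6 genes on none.

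H19, measured by the probe ILMN_2148527, had a bead signal of 243 and 317 on the siPATZ1 arrays, against 605 and 482 on the siCTRL arrays. Its detection p-value was 0 on every array. The higher siPATZ1 array was well below the lower siCTRL array, so the groups did not overlap. After background correction and quantile normalization the log2 signal was 7.40 and 7.83 after siPATZ1, against 9.16 and 8.81 after siCTRL, with means of 7.62 ± 0.31 after siPATZ1 and 8.99 ± 0.24 after siCTRL (SD, n = 2 arrays each). The log2 fold change was -1.37 (limma, SE 0.18, adjusted p = 0.0058 over all genes), which is a 2.58-fold lower level. H19 ranked 9 of 9435 genes counted from the most negative fold change. Leaving out each array in turn gave between -1.58 and -1.15, with an adjusted p of at most 0.0377 from limma.

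CDKN1C encodes p57, the cyclin-dependent kinase inhibitor of the Cip/Kip family that is expressed from the maternal copy and restrains growth. The signal of its probe, ILMN_1718565, was 227 and 243 on the siPATZ1 arrays, against 351 and 301 on the siCTRL arrays, and it was detected on all 4. The groups did not overlap. The log2 signal averaged 7.29 ± 0.05 after siPATZ1 and 8.11 ± 0.18 after siCTRL (SD, n = 2 each), a log2 fold change of -0.82 (limma, SE 0.14, adjusted p = 0.0099) or a 1.77-fold lower level, at rank 140 from the most negative. CDKN1C did not pass without siPATZ1 replicate 1 (adjusted p = 0.0880 from limma) or without siPATZ1 replicate 2 (0.0692), where the log2 fold change was -0.79 and -0.85.

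PHLDA2, a maternally expressed gene known in mice for restraining placental growth, lies beyond CDKN1C in the same domain. The signal of its probe, ILMN_1671557, was 192 on both siPATZ1 arrays, against 255 and 196 on the siCTRL arrays. Both siPATZ1 arrays were below both siCTRL arrays, but 1 siCTRL array was nearly as low as they were. The log2 signal was 6.92 and 6.82 after siPATZ1, against 7.65 and 7.13 after siCTRL. The log2 fold change of -0.52 (SE 0.18) did not pass, with an adjusted p of 0.092 from limma, and it was -0.33 on the deposited scaled intensities. Its size rested on siCTRL replicate 1, since it was -0.26 without that array (adjusted p = 0.242 from limma), and it was -0.79 without siCTRL replicate 2 (0.0101), the only array whose removal gave a call. H19, CDKN1C and PHLDA2 each had both siPATZ1 arrays below both siCTRL arrays, which was so for 29.9% of all genes tested.

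IGF2, the fetal growth factor that is expressed from the paternal copy, was not detected by any of its 3 probes. The brightest of them, ILMN_1699867, had a signal of 110 and 121 after siPATZ1, against 82.4 and 117 after siCTRL, and its lowest detection p-value on any array was 0.0377. On each array this lay below the weakest detected probe, whose signal was 133 and 147 on the siPATZ1 arrays, against 144 and 142 on the siCTRL arrays. Probe ILMN_2413956 had 67.2 and 74.3 after siPATZ1, against 82.3 and 74.7 after siCTRL, and ILMN_2298035 had 58.7 and 63.5 after siPATZ1, against 62.3 and 56.4 after siCTRL. No change of IGF2 could be measured in either direction at this sensitivity. The readthrough transcript INS-IGF2, with 2 probes, and the microRNA gene MIR483 that lies within IGF2, with 1 probe, could not be tested either.

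**Figure D2:**
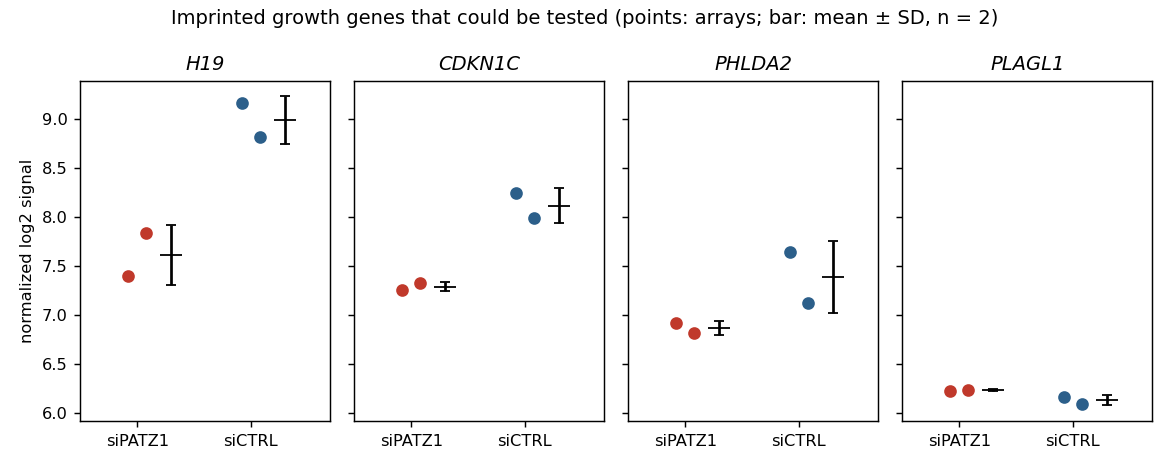
Normalized log2 signal of the 4 genes that could be tested, siPATZ1 left of siCTRL, with 1 point per array and bars for the mean ± SD (n = 2). H19 and CDKN1C were separated by more than the spread between arrays, 1 siCTRL array of PHLDA2 lay close to the siPATZ1 arrays, and PLAGL1 differed by 0.10 on the log2 scale. Levels are not compared between panels, since each is another probe.

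At the other loci, 1 of the 6 genes could be tested. PLAGL1, a zinc finger factor of 6q24 that in mice regulates a network of imprinted genes including H19, had a signal of 144 and 151 after siPATZ1, against 134 and 130 after siCTRL, for the probe that could be tested (ILMN_1815121). This probe was detected on both siPATZ1 arrays only, with detection p-values of 0.00909 and 0.00779 after siPATZ1, against 0.0195 and 0.0221 after siCTRL, which lie on either side of the limit of 0.01. The log2 fold change was 0.10 (limma, SE 0.12, adjusted p = 0.606), and no fold is given because the normalized log2 signal after siPATZ1 (6.23 and 6.24) was below that of the weakest detected probe on the siCTRL arrays (6.37 and 6.33). The second PLAGL1 probe, ILMN_2356955, had 168 and 127 after siPATZ1, against 142 and 169 after siCTRL. It was detected on 1 array of each group and its groups overlapped, with a log2 difference of -0.37. The values of the first probe did not overlap and those of the second did, in opposite directions, and the first did not pass the test.

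MEG3, the maternally expressed noncoding RNA of 14q32, had signals of 80.8 to 99.3 after siPATZ1, against 74.3 to 95.0 after siCTRL, over its 2 probes. DLK1, the paternally expressed gene of the same locus, which encodes a transmembrane protein related to Notch ligands, had 59.6 to 84.3 after siPATZ1, against 59.2 to 93.7 after siCTRL. None of these probes was detected on any array.

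PEG3, a paternally expressed zinc finger gene, had 93.8 and 89.2 after siPATZ1, against 86.0 and 85.1 after siCTRL. PEG10, a gene derived from a retrotransposon, had 78.0 to 98.1 after siPATZ1, against 67.2 to 125 after siCTRL, over 3 probes. Its highest value, 125 for ILMN_2297626 on siCTRL replicate 2, had the lowest detection p-value of the 14 probes that were detected nowhere (0.0286) and was met by 86.8 on the other siCTRL array.

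MEST, which encodes a protein of the alpha/beta hydrolase family and is expressed from the paternal copy, had 56.9 to 72.3 after siPATZ1, against 62.0 to 77.9 after siCTRL, over 3 probes. In all, the 14 probes of IGF2, MEG3, DLK1, PEG3, PEG10 and MEST had signals of 56.4 to 125, beside medians of 83.4 and 88.6 after siPATZ1 and of 82.8 and 83.4 after siCTRL for undetected probes. Changes in these 6 genes were not detectable on this array, which does not show that the transcripts were absent.

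Read by locus, 3 of the 4 genes at 11p15 could be tested, with a median log2 fold change of -0.82, and the single testable member elsewhere had 0.10, beside a median of -0.000848 over all genes tested. H19 and CDKN1C were chosen for their known falls, and -0.82 is the value of CDKN1C itself, so the 11p15 median is a description. With 1 gene on the other side as well, no difference between the loci could be measured among the 10. A wider list of imprinted genes was therefore read in the same fit. At 11p15, 1 of 7 further imprinted genes could be tested, KCNQ1OT1, the paternally expressed antisense RNA that silences CDKN1C and its neighbours in cis. Its log2 signal was 7.27 and 7.79 after siPATZ1, against 7.59 and 7.68 after siCTRL, which overlap, and its log2 fold change was -0.10 (limma, SE 0.18, adjusted p = 0.735).

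Of 36 further imprinted genes at other loci 17 could be tested, with a median log2 fold change of 0.14. By limma's adjusted p 0 were lower, 1 was higher and 16 did not pass, and at an unadjusted p under 0.05 limma had 1 lower and 2 higher, beside 1442 lower and 1491 higher of all 9435 genes. The higher one was UBE3A, the ubiquitin ligase of the Angelman syndrome locus, which is imprinted in neurons and expressed from both copies in most other cells. Its log2 signal was 10.47 and 10.15 after siPATZ1, against 9.07 and 9.72 after siCTRL, a log2 fold change of 0.91 (limma, SE 0.22, adjusted p = 0.0319). A second UBE3A probe gave 0.93 (adjusted p = 0.0107 from limma over all probes). The value rested partly on siCTRL replicate 1, being 0.58 without that array (adjusted p = 0.0662 from limma) and 1.24 without siCTRL replicate 2. The call was also lost without siPATZ1 replicate 1 (0.170) or replicate 2 (0.0802), with a detection p under 0.05 (0.0535), with no filter (0.125) and in the methods' two-group test (unadjusted p = 0.128). ZNF331, a zinc finger gene named after its values were seen, had probes that disagreed. Its gene value was -0.44 (not passed), and over all probes another kept probe had -0.58 (adjusted p = 0.0296 from limma) and one more, not detected after siCTRL, had 0.49 (0.0480). SGCE, which shares its imprinted promoter region with PEG10, and MEG8, a noncoding RNA of the locus of MEG3 and DLK1, were looked up after their values were seen, as partners of members that were not detected. They had log2 fold changes of 0.20 (SE 0.17) and -0.22 (SE 0.14), and neither passed.

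**Figure D3:**
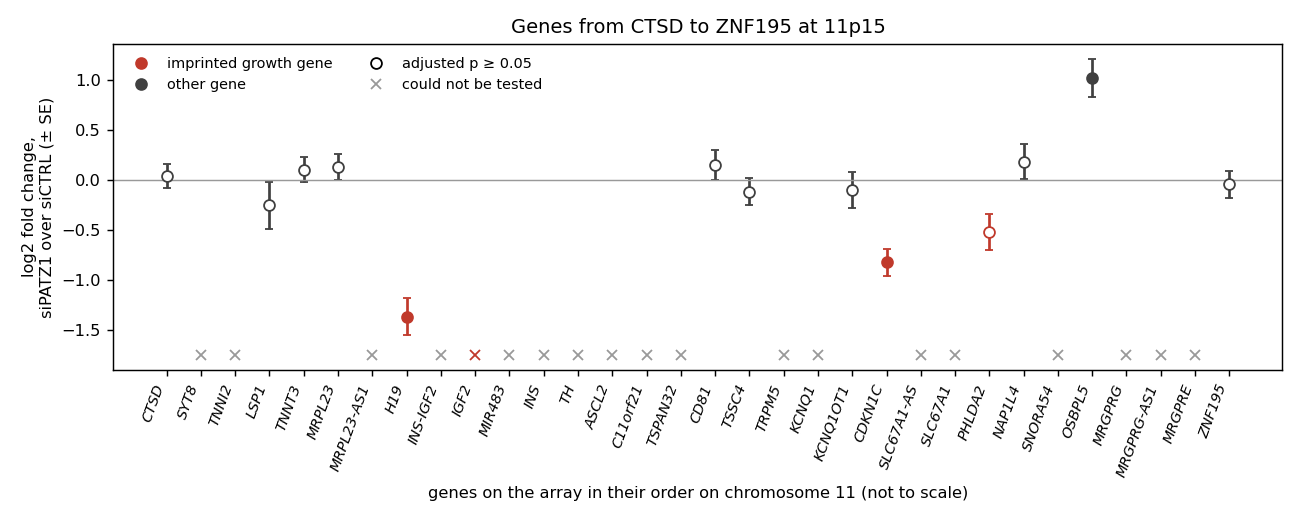
Log2 fold change (siPATZ1 over siCTRL) ± SE of the 32 genes on the array between CTSD and ZNF195, in RefSeq order along chromosome 11 and not to scale. Imprinted growth genes are red, filled points had an adjusted p under 0.05, and crosses at the bottom mark genes with no probe that could be tested. H19 and CDKN1C lay lowest, and PHLDA2 stood at -0.52 and did not pass. Most other neighbours stood near 0, with OSBPL5, which was not detected after siCTRL, above them at 1.02.

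The genes around these loci were read in their order along chromosome 11. Between CTSD and ZNF195, RefSeq lists 65 genes, of which 32 were on the array and 13 could be tested, 3 of them members. Of the 10 others, 0 were lower (also 0 at limma's unadjusted p under 0.05), 1 was higher and 9 did not pass. The share over all genes tested was 6.96% lower and 7.78% higher. The 10 had a median log2 fold change of 0.07 and a range of -0.26 to 1.02. MRPL23, which encodes a mitochondrial ribosomal protein, was the nearest tested gene on one side of H19, at 0.13 (limma, SE 0.13, adjusted p = 0.545). CD81, which encodes a tetraspanin, was the nearest beyond IGF2, at 0.15 (limma, SE 0.15, adjusted p = 0.551).

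KCNQ1OT1 and PHLDA2 were the tested genes nearest to CDKN1C. NAP1L4, a histone chaperone gene beyond PHLDA2, had a log2 fold change of 0.18 (limma, SE 0.18, adjusted p = 0.526). The neighbour that rose, OSBPL5, encodes an oxysterol-binding protein relative. Its log2 signal was 6.35 and 6.82 after siPATZ1, against 5.38 and 5.75 after siCTRL, where it was not detected, so it was at least 1.18-fold higher (fitted log2 fold change 1.02, limma SE 0.19 with adjusted p = 0.016, but 0.54 without background correction, 0.68 with an offset of 50 and 0.53 on the deposited scaled intensities). It did not pass without siPATZ1 replicate 2 (adjusted p = 0.106).

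The insulin-like growth factor axis, in which IGF2 is a ligand, was read from a list of 17 further genes, 9 of which could be tested. Of these 2 were higher, 2 were lower and 5 did not pass, beside 7.78% higher and 6.96% lower over all genes tested. Their median log2 fold change was -0.32. The count includes IGF1R, IGFBP6 and IGF2BP1, each kept only through the group in which it was higher. IGF1R and IGFBP6 were not detected in the other group, and IGF2BP1 was detected there on 1 array. Of the 6 genes detected on all 4 arrays 1 was called, IGFBP5. IGF1R, the receptor through which IGF2 signals growth, had a log2 signal of 6.17 and 6.38 after siPATZ1, against 5.19 and 4.91 after siCTRL, where it was not detected. The fitted log2 fold change was 1.22 (limma, SE 0.15, adjusted p = 0.00387), but 0.68 without background correction, 0.73 with an offset of 50 and 0.65 on the deposited scaled intensities. No bound is given, because the normalized siPATZ1 level lay below the weakest detected signal of the siCTRL arrays.

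IGFBP5, a secreted binding protein of the growth factors, had 7.90 and 8.10 after siPATZ1, against 6.72 and 7.06 after siCTRL. It was higher by 1.11 on the log2 scale (limma, SE 0.15, adjusted p = 0.0064). Its second probe gave 1.33, but that probe was not detected after siCTRL and was kept only through the siPATZ1 arrays. Without siPATZ1 replicate 2 its adjusted p was 0.0538.

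IGF2BP1, an oncofetal RNA-binding protein first known for binding IGF2 mRNA and also known to bind H19 RNA, had a log2 signal of 6.04 and 5.66 after siPATZ1, against 6.98 and 7.03 after siCTRL. It was not detected on siPATZ1 replicate 2 (detection p-value 0.0351), so it was kept only through the siCTRL arrays. Its log2 fold change was -1.16 (limma, SE 0.15, adjusted p = 0.0057), but -0.66 without background correction and -0.65 on the deposited scaled intensities. It passed in all 4 fits that left out 1 array. IGFBP6, a binding protein that prefers IGF2, had 5.85 and 5.81 after siPATZ1, where it was not detected, against 6.55 and 6.70 after siCTRL. On the main normalized scale, though not in the other settings given next, IGFBP6 was thus at least 1.44-fold lower after siPATZ1. Its fitted log2 fold change was -0.79 (limma SE 0.12 with adjusted p = 0.0088), but -0.42 without background correction and -0.43 on the deposited scaled intensities. It did not pass without siPATZ1 replicate 1 (adjusted p = 0.0731) or replicate 2 (0.0839).

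Genes that set or keep imprints were read next. Of 17 genes listed 9 could be tested, all of them detected on all 4 arrays, and 0 were called by limma, with 0 at an unadjusted p under 0.05 as well. Their log2 fold changes ran between -0.23 and 0.17. The smallest p-values were those of EHMT2, a histone methyltransferase, at -0.23 (limma, SE 0.13, adjusted p = 0.261), and of DNMT1, the maintenance DNA methyltransferase, at 0.17 (limma, SE 0.12, adjusted p = 0.373). CTCF, the insulator protein that binds between IGF2 and H19, was looked up beside them after its value was seen and had 0.04 (limma, SE 0.13, adjusted p = 0.868).

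**Figure D4:**
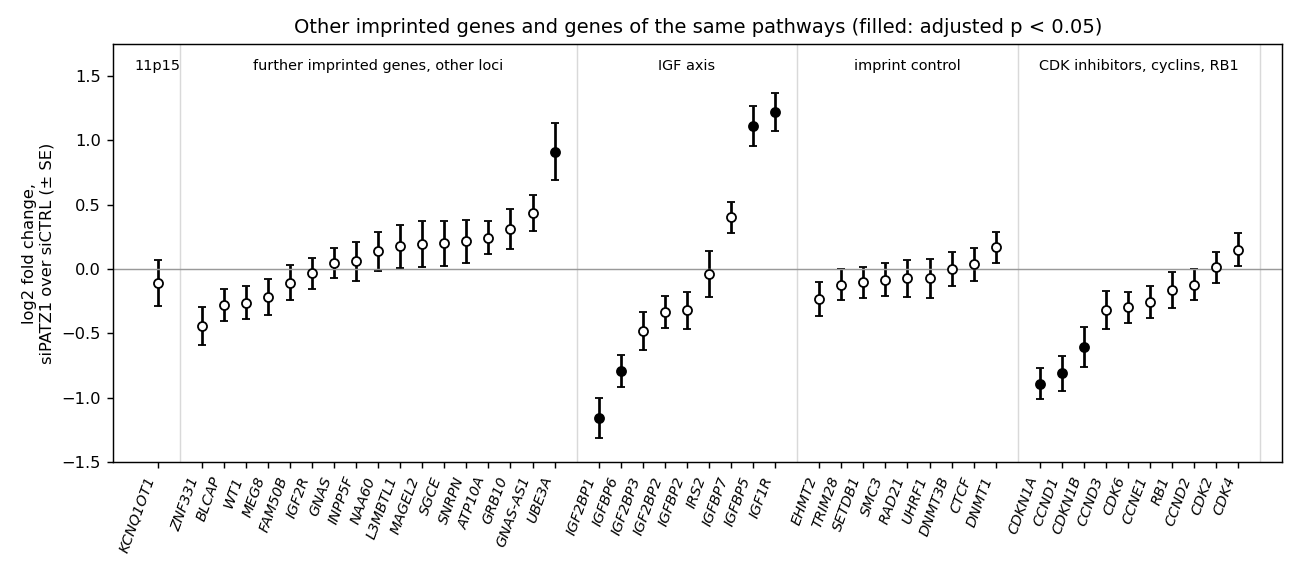
Log2 fold change (siPATZ1 over siCTRL) ± SE of the tested genes of 5 lists: further imprinted genes at 11p15 and at other loci, the insulin-like growth factor axis, imprint control, and cyclin-dependent kinase inhibitors with cyclins and RB1. Filled points had an adjusted p under 0.05: UBE3A, IGF1R and IGFBP5 above 0, and IGF2BP1, IGFBP6, CDKN1A, CCND1 and CDKN1B below it.

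CDKN1C also belongs to the Cip/Kip inhibitors, which hold back the kinases of G1 and S phase. Of 10 other genes of that pathway that could be tested, 0 were higher (also 0 at limma's unadjusted p under 0.05), 3 were lower and 7 did not pass. Over all genes tested, 6.96% were called lower and 7.78% higher. This list was chosen with earlier results of these data known, so the count is a description. The study had already reported CDKN1A, CDKN1B and CDKN1C as lower in siPATZ1-treated cells, from these same arrays. For CDKN1B it also reported lower mRNA by qRT-PCR and lower protein by western blot in HepG2 cells. CDKN1A, which encodes p21, had a log2 fold change of -0.89 (limma, SE 0.12, adjusted p = 0.0059). CCND1, which encodes cyclin D1, had -0.81 (limma, SE 0.14, adjusted p = 0.0105), and CDKN1B, which encodes p27, had -0.61 (limma, SE 0.15, adjusted p = 0.0381). CDKN1B passed in 0 of the 4 fits that left out 1 array, CCND1 did not pass without siPATZ1 replicate 1 (adjusted p = 0.0867) or replicate 2 (0.0743), and CDKN1A did not pass without siPATZ1 replicate 2 (0.0585).

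The genes whose values over the 4 arrays lay closest to those of H19, by the Euclidean distance of log2 values after centring each gene on its mean, were RAB22A at 0.247, RENBP at 0.250 and TIMP3 at 0.292, among 8546 genes detected on all 4 arrays. Their log2 fold changes were -1.24, -1.23 and -1.26. Closest to CDKN1C were LOXL4 at 0.0671, MSI2 at 0.0674 and SPARC at 0.0744, with log2 fold changes of -0.76, -0.76 and -0.89. With 4 arrays in 2 groups, a small distance mostly says that a gene differed between the groups by a like amount.

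**Figure D5:**
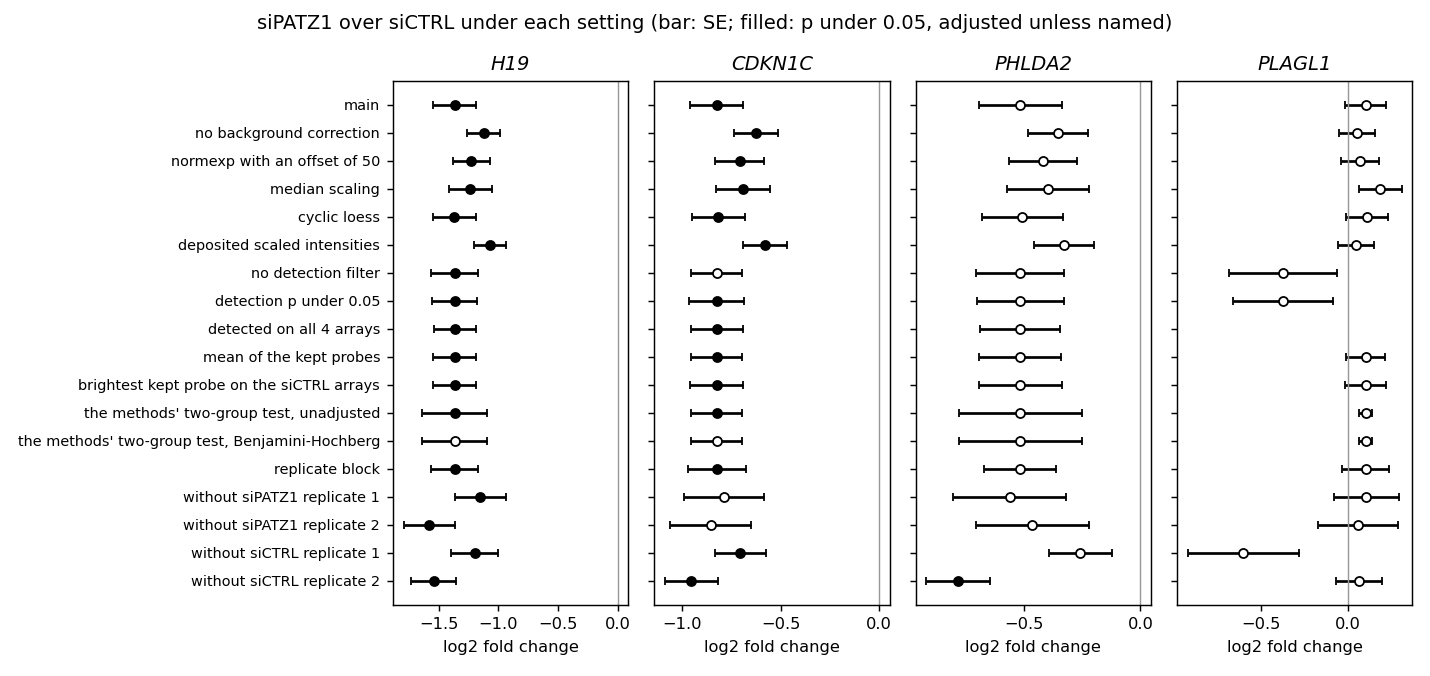
Log2 fold change (siPATZ1 over siCTRL) ± SE of H19, CDKN1C, PHLDA2 and PLAGL1 under the main setting and each alternative, filled where the p-value was under 0.05 (adjusted unless the setting says unadjusted). H19, CDKN1C and PHLDA2 stayed below 0 throughout, from -1.58 to -1.07, from -0.95 to -0.58 and from -0.79 to -0.26, and PLAGL1 lay on both sides of 0.

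Over 17 other settings of background correction, normalization, filter, probe choice, test and arrays, the log2 fold change of H19 ran from -1.58 to -1.07 and that of CDKN1C from -0.95 to -0.58. H19 passed in 16 of the 17 and CDKN1C in 13, where the unadjusted two-group test was judged by its p without adjustment. PHLDA2 was negative in all 17 and passed in 1, and PLAGL1 was negative in 3 of 16.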

How the data were processed

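Total RNA of siPATZ1- and siCTRL-treated HepG2 cells (2 arrays each) was hybridized to Illumina HumanHT-12 v4 BeadChips. The authors deposited an intensity per probe, on a linear scale and not normalized, with a detection p-value beside each, and a second table of intensity values scaled to the same mean per array. The submitters' processing notes name GenomeStudio. Background treatment, slides and scan dates are not given in the sources used here.

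The intensities were background corrected (normexp from the detection p-values, offset 16), quantile normalized and log2 transformed with neqc of limma 3.58.1 in R 4.3.3. The platform annotation, updated through RefSeq, named 1 gene for 30112 probes, several genes for 8 and none for 17203. Kept were probes with a deposited detection p-value below 0.01 on both siPATZ1 or both siCTRL arrays, and the brightest kept probe stood for its gene. Groups were fitted with lmFit and eBayes (2 residual and 5.74 prior degrees of freedom) with Benjamini-Hochberg adjustment over all genes tested. Where a gene was not detected in a group, its fold is a bound against the weakest detected signal there ("at least N-fold"). Such a bound holds for the main normalized values and not for every other setting.

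The members and the gene lists were chosen with earlier results of these data known. Named were all members, the called genes of each list (at most 6, or else the 2 with the smallest p), the nearest tested neighbours on chromosome 11 and the 3 genes most like H19 and CDKN1C, with any exception marked in the text. RefSeq was used for gene names, gene order and sequences only.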

Additional observations from a re-analysis of the deposited data

How the results depend on the processing

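The 2 called members became 1 with no detection filter and 0 with the methods' two-group test after Benjamini-Hochberg adjustment, and 1 to 3 when 1 array was left out. With that test the fold changes were as before (H19 -1.37, adjusted p = 0.234; CDKN1C -0.82, adjusted p = 0.206), and with no filter CDKN1C kept -0.82 (adjusted p = 0.051 from limma). Leaving out 1 array gave -0.95 to -0.70 for CDKN1C. PLAGL1 turned to -0.37 with no filter and with a detection p under 0.05, and to -0.60 without siCTRL replicate 1, since its other probe was then used, with 0.11 as its highest value when 1 array was left out.

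Over all genes, 657 were lower and 734 higher. Median scaling, which moved the median of all genes to 0.12, gave 382 lower and 1338 higher. The deposited scaled intensities gave 1130 higher, no filter 152 lower and 191 higher, and the methods' two-group test 947 lower and 925 higher unadjusted, but 0 lower and 1 higher after adjustment. Leaving out 1 array gave 85 to 917 lower and 110 to 992 higher, with the lowest counts without siPATZ1 replicate 2 (85 and 110) and replicate 1 (94 and 111). Over all probes, 857 were lower and 1017 higher. Lower and higher counts were 569 and 1932 with median scaling, 22 and 57 with no filter, 520 and 619 with a detection p under 0.05, and 0 and 0 with the adjusted two-group test. That test unadjusted gave 1395 lower, and the scaled intensities gave 1685 higher. Leaving out 1 array gave 0 to 922 lower and 0 to 1122 higher, with 0 and 0 without siPATZ1 replicate 2, 11 and 31 without siPATZ1 replicate 1, and 512 lower without siCTRL replicate 1.

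Arrays of the same number did not deviate together (r = -0.0504 over genes). Whether they shared a culture or a transfection is not given in the labels, and this value cannot tell. With the replicate block, 507 genes were lower and 596 higher, and H19 (adjusted p = 0.0103 from limma) and CDKN1C (0.0184) still passed. The limits are 2 arrays a group and signals of 14 of the 19 probes at the level of undetected probes.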
